A study of Mus musculus with 16 samples.

Results

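The genes described here encode the parts of the mitochondrial respiratory chain and ATP synthase that are made from nuclear DNA. They were chosen by symbol from the RefSeq protein-coding genes of GRCm38 (mm10) on chromosomes 1 to 19. A symbol had to begin with Nduf, Uqcr or Atp5, be one of Sdha to Sdhd, or begin with Cox4 to Cox8. The rule found 93 genes of 20665 protein-coding genes on these chromosomes, while 3 further coding genes that match it lie on other chromosomes and were left out. The symbol rule itself uses no measured value, but the gene set was proposed with earlier results of these data known. The label held for most members, but 8 of the 93 encode complex I assembly factors (Ndufaf1 to Ndufaf8), which are not subunits. Ndufb4b and Ndufb4c are named as copies of Ndufb4, so reads of near-identical sequence may be placed at the wrong copy and their values are uncertain.

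The study profiled H3K27ac and H3K4me3 in mouse late 2-cell embryos at 36 h after fertilization, by native chromatin immunoprecipitation from very few cells. Zygotes had received either H2O (control) or mRNA of mutant Hdac1 (mutant). Hdac1 is a deacetylase that removes acetyl groups from histones, and the mutation, the mouse strain and the number of embryos per library are not given in the sources used here. Each mark in each condition had 2 immunoprecipitation libraries and 2 input libraries, 16 libraries in all, but is represented by 1 deposited peak list. Such a list gives positions without height, so no value below has a replicate error, no test was made and the sequencing depth is unknown. Every difference is a difference between 2 lists, which held 77444 (control) and 122507 (mutant) H3K27ac peaks and 86857 (control) and 85804 (mutant) H3K4me3 peaks.

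As background, complexes I and II pass electrons from NADH and succinate to ubiquinone, complex III passes them to cytochrome c, and complex IV passes them to oxygen. Complexes I, III and IV pump protons, and complex V (ATP synthase) uses the proton gradient to make ATP. Cleavage-stage embryos rely on mitochondria inherited from the oocyte, and the nuclear genes for these complexes are widely transcribed housekeeping genes, apart from a few isoforms restricted to muscle, testis or other tissues. H3K4me3 marks active start sites, and H3K27ac marks active promoters and enhancers. The transcription factors NRF1 and GABP, and also YY1, are known regulators of many of these genes.

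The RefSeq promoter table (GRCm38.p6) gave a start site and 300 bases of sequence (250 before to 50 after the start) for 75 of the 93 members. The core letters of the NRF1 site (GCATGCGC, either strand) were found in 12 of 75 members (16.0%), against 3.99% of 16457 promoters of the same length. The GABP core (CCGGAAG) was found in 19 members (25.3%, against 13.3%) and the YY1 core (AAGATGGC) in 11 members (14.7%, against 3.59%). At least 1 of these cores was present in 35 members (46.7%), against 19.1% of all promoters. The GC box (GGGCGG), the CCAAT box (CCAAT) and the TATA box (TATAAA) were found in 45.3%, 42.7% and 10.7% of members, against 50.3%, 42.3% and 15.0% of all promoters. These are matches of letters and not shown binding sites.

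The 200 bases before the start are printed for 7 members that were picked after their values were seen to show the range of outcomes, with NRF1, GABP, YY1 and TATA letters in capitals. Cox6a1 had both marks over its start in both lists. Ndufa8 had H3K27ac over its start in the mutant list only, and Uqcr11 had H3K27ac at its gene ends in the mutant list only. Ndufa3 and Cox7a1 had H3K4me3 at their ends in the control list only. Ndufaf4 had it over the start in the control list and from 66 bp past the start in the mutant list. Cox8b had none in either list.
Cox6a1, chr5:115348959-115349158, minus strand: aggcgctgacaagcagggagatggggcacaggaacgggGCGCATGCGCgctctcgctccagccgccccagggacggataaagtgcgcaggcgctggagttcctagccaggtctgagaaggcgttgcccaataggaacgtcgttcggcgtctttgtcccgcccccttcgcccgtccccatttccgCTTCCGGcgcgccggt
Ndufa8, chr2:36049339-36049538, minus strand: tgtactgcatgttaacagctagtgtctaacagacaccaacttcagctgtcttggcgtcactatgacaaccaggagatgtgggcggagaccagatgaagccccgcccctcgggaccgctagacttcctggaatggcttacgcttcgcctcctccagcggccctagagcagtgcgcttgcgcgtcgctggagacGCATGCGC
Uqcr11, chr10:80406822-80407021, minus strand: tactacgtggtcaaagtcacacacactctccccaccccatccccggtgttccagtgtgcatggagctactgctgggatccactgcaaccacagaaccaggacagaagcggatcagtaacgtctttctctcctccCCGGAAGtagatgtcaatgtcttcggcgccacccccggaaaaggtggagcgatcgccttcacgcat
Ndufaf4, chr4:24897883-24898082, plus strand: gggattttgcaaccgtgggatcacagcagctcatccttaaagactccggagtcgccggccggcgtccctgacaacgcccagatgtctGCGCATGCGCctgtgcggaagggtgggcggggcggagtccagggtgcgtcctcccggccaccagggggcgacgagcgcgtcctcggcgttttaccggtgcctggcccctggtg
Ndufa3, chr7:3617173-3617372, plus strand: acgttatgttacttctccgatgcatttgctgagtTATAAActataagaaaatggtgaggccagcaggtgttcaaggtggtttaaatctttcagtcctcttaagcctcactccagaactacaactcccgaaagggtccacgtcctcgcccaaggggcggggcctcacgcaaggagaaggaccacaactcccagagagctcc
Cox7a1, chr7:30183971-30184170, plus strand: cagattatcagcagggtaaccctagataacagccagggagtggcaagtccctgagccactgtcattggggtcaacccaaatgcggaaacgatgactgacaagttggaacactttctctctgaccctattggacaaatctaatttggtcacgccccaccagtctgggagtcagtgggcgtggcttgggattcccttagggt
Cox8b, chr7:140900447-140900646, minus strand: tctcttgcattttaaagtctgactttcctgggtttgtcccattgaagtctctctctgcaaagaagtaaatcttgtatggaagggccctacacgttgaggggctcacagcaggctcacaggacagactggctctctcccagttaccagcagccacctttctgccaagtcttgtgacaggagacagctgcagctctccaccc
The CG dinucleotide occurred 23 times in these bases of Cox6a1, 14 times in Ndufa8, 11 times in Uqcr11 and 21 times in Ndufaf4. It occurred 7 times in Ndufa3, 4 times in Cox7a1 and 1 time in Cox8b. In Cox6a1 and Ndufaf4 the NRF1 core lay on both strands of 1 palindrome. No NRF1, GABP, YY1 or TATA letters were found in these windows of Cox7a1 and Cox8b.

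A gene was called marked when a peak reached windows of 2 kb on each side of its first and last base, by at least 1 bp. A gene marked in the control list alone is said to have lost the mark, and a gene marked in the mutant list alone to have gained it. H3K4me3 marked 87 of 93 members in the control list and 84 in the mutant list, against 76.4% and 75.1% of all genes. It was lost at 4 of the 87, namely Cox4i2, Cox7a1, Cox7a2l and Ndufa3, while 8.14% of all marked genes lost it. It was gained at 1 of 6 unmarked members, Ndufb4b, against 20.8% of all unmarked genes, through a peak of 273 bp.

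H3K27ac marked 78 of 93 members in the control list and 75 in the mutant list, against 56.3% and 59.3% of all genes. With the longer mutant list reduced to the size of the control list, these became 78 and 74 members, and 56.3% and 53.2% of all genes. In the full lists 13 of the 78 control-marked members lost it (16.7%, against 22.6% of all control-marked genes). These were Atp5o, Cox7a1, Cox7a2l, Cox7c, Cox8c, Ndufa11, Ndufa5, Ndufab1, Ndufaf4, Ndufaf7, Ndufb4c, Ndufc2 and Uqcr10. Of the 15 members without it in control, 10 gained it (66.7%, against 35.9% of all unmarked genes). These were Atp5d, Atp5mpl, Cox8b, Ndufa8, Ndufaf2, Ndufb4, Ndufs4, Ndufs6, Uqcr11 and Uqcrfs1. This order of losses and gains was not stable. Windows of 5 kb gave 11 losses and 4 gains, but the wider 50% of each list gave 11 losses and 12 gains, and the lists without peaks under 500 bp gave 11 losses and 13 gains. Lists of equal size gave the members 13 losses and 9 gains. Over all genes the full lists gave 2626 losses and 3247 gains, and lists of equal size gave 3093 losses and 2447 gains.

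The regions around these genes were themselves rich in peaks. When the windows were moved by 10 kb to either side, H3K27ac was found at 70 and 66 members in the control list and at 65 and 71 in the mutant list. H3K4me3 was found at 74 and 66 members in the control list and at 73 and 71 in the mutant list. Over all genes, the moved windows held H3K27ac at 52.7% and 52.3% in the control list and at 56.8% and 56.7% in the mutant list. For H3K4me3 the shares were 57.99% and 57.6%, and 58.8% and 58.3%. A count of marked members therefore describes gene surroundings as well as gene ends, and the covered length and the start site are given in what follows.

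The marks were next read at the start site itself, for the 75 members with a RefSeq start. An H3K4me3 peak lay over the start of 72 members in the control list and 68 in the mutant list, against 67.7% and 64.4% of 16457 genes. The 4 members that lost it there were Cox7a1, Cox7a2l, Ndufa3 and Ndufaf4 (5.56% of 72, against 10.9% of all genes). Ndufaf4 differs from the others, since a mutant H3K4me3 peak began 66 bp past its start and its covered length was 1551 bp in the control list and 3583 bp in the mutant list. None of the 3 members without it in control gained it, against 12.6% of all such genes. H3K27ac covered the start of 49 members in the control list and 38 in the mutant list, against 36.4% and 28.8% of all genes. It was lost over the start at 17 of 49 members (34.7%, against 49.4%) and gained at 6 of 26, against 16.4% of all genes without it. At Sdha, counted among the losses, a mutant peak lay 4 bp downstream of the start. The gains were at Cox5a, Cox8b, Ndufa12, Ndufa8, Ndufs4 and Sdhb. The 17 losses and 6 gains compare with 2959 losses and 1722 gains over the starts of all genes, whereas at gene ends all genes had 2626 losses and 3247 gains. With lists of equal size the gene ends of all genes had 3093 losses and 2447 gains, so the order there depended on the longer mutant list. Losses thus outnumbered gains at the start over all genes too. Windows of 2 kb around the start alone gave 18 losses and 5 gains.

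**Figure D1:**
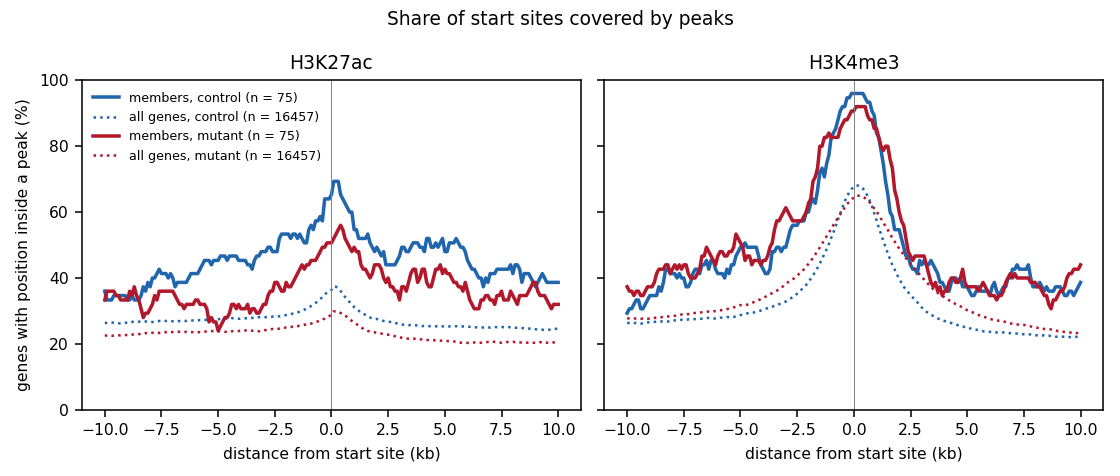
Share of genes (%, y axis) whose position at a given distance from the start site (kb, x axis, gene direction) lay inside a peak, for 75 members (solid lines) and 16457 genes (dotted lines), in control (blue) and mutant (red) lists. For H3K4me3 the members reached 96.0% in the control list and 92.0% in mutant lists near the start, and for H3K27ac 69.3% and 56.0%.

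Away from the start the order of the lists was no longer the same for H3K4me3. At 10 kb upstream 29.3% of members in the control list and 37.3% in the mutant list lay in an H3K4me3 peak, against 26.4% and 27.8% of all genes. At the same distance 36.0% and 33.3% of members lay in an H3K27ac peak, against 26.3% and 22.6% of all genes. The H3K4me3 peak over the start reached a median of 2467 bp upstream in the control list and 3318 bp in the mutant list. Downstream its median reach was 2159 bp and 2405 bp. The H3K27ac peak over the start reached 3429 bp upstream in the control list and 2666 bp in the mutant list, and 3990 and 2574 bp downstream.

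The widths of the peaks differed more between the H3K27ac lists than the number of marked members did. The widest H3K27ac peak at a marked member had a median width of 10189 bp in control (78 members) and 5539 bp in the mutant list (75 members). The same medians over all marked genes were 7669 and 4321 bp. H3K27ac peaks wider than 5 kb lay at 55 members in the control list and 40 in the mutant list, against 34.8% and 26.5% of all genes. Those wider than 10 kb lay at 40 members in the control list and 14 in the mutant list, against 23.1% and 10.4% of all genes. Of the 65 members marked in both lists, the widest H3K27ac peak was narrower in the mutant list at 46, against 66.8% of all such genes, and wider at 19, against 33.1%. H3K4me3 peaks wider than 5 kb lay at 55 members in the control list and 64 in the mutant list, against 40% and 49.3% of all genes. Those wider than 10 kb lay at 30 members in the control list and 23 in the mutant list (32.3% and 24.7%), against 19% and 25.1% of all genes. In the same order this limit was passed at 54 and 47 of 86 ribosomal protein genes and at 15 and 13 of 39 proteasome genes. The median widest H3K4me3 peak was 6932 bp in the control list and 7773 bp in the mutant list, against 5286 and 7093 bp over all marked genes. It was narrower in the mutant list at 39 of 83 members marked in both and wider at 44, against 36.9% and 63.1% of all such genes.

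**Figure D2:**
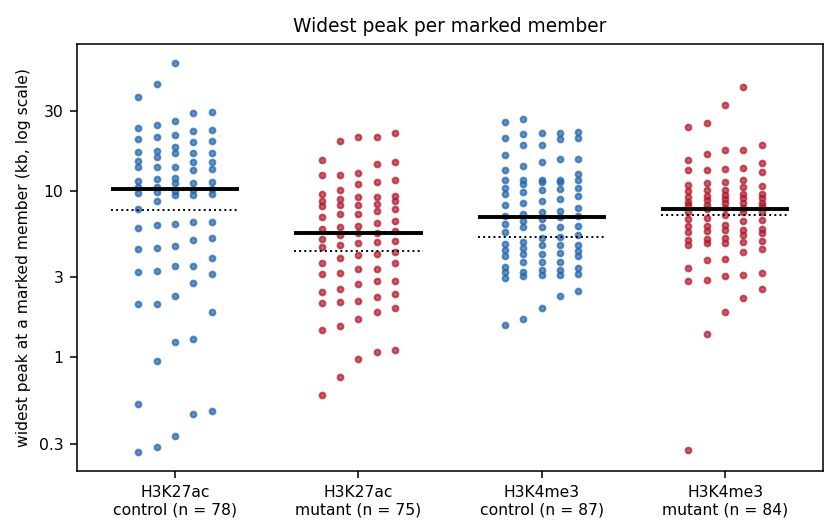
Width of the widest peak at each marked member (kb, log y axis) in the 4 lists, with 1 point per member, the members' median (solid line) and the median over all marked genes (dotted line). The H3K27ac medians are 10189 bp in the control list and 5539 bp in mutant, and the H3K4me3 medians are 6932 and 7773 bp.

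In covered sequence, H3K27ac took up 347.3 kb of the members' windows in the control list and 276.0 kb in the mutant list, a ratio of 0.795. The ratio over all genes was 0.863. The share of window sequence under H3K27ac was thus 49.6% in the control list and 39.4% in the mutant list, against 27.004% and 23.3% over all genes. Covered length was lower by at least 500 bp in the mutant list at 44 members and higher at 27, against 30.9% and 25.0% of all genes. For H3K4me3 the windows held 411.7 kb in the control list and 409.4 kb in the mutant list, a ratio of 0.994, against 1.04 over all genes. It was lower at 30 members and higher at 27, against 23.8% and 32.2% of all genes. That order turned with the window, to 32 lower and 46 higher with windows of 5 kb, and to 11 lower and 22 higher with windows at the start alone, so no direction is given for H3K4me3.

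The positions of H3K4me3 were shared to a larger extent than those of H3K27ac. Of the H3K4me3 bases in control windows, 83.1% were also under H3K4me3 in the mutant list, against 79.3% over all genes. For H3K27ac the share was 55.1%, against 49.9%. Of the 65 members with H3K27ac in both lists, 59 had bases in common, as had 82 of the 83 members with H3K4me3 in both (90.8% and 98.8%). Over all genes the shares were 84.3% and 97.1%.

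**Figure D3:**
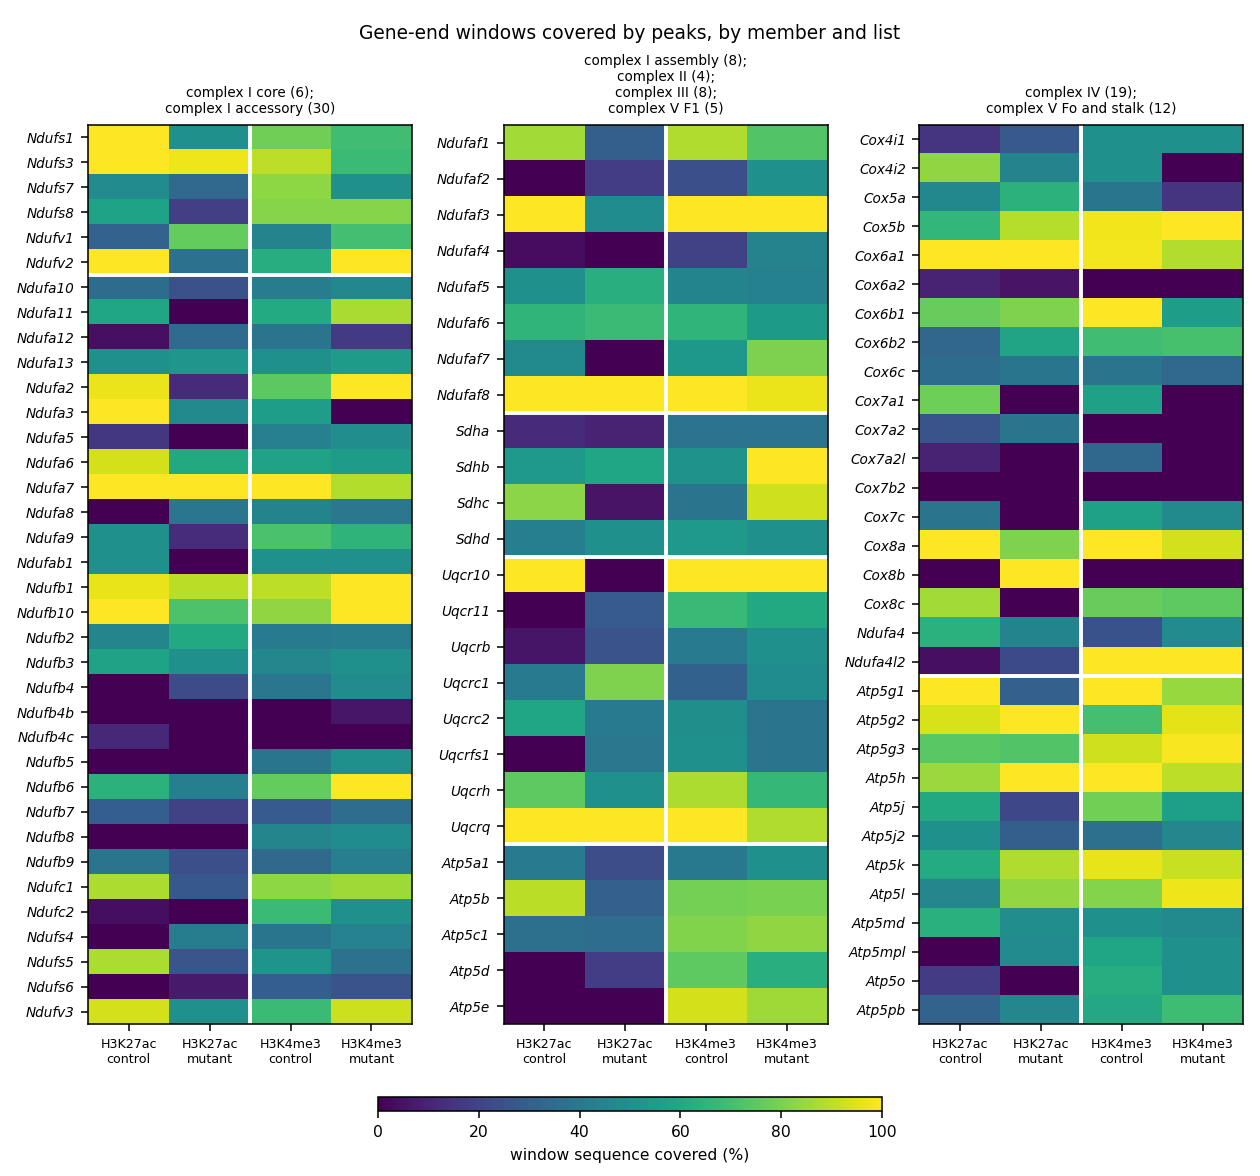
Share of the gene-end windows covered by peaks (%, colour) for 92 of the 93 members (rows) in the 4 lists (columns), grouped by complex, with the number of members drawn in brackets. Dark cells are windows without a peak, such as H3K4me3 at Cox7b2 and Cox8b and mutant H3K27ac at Uqcr10.

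Complex I, NADH dehydrogenase, supplied 37 subunit genes besides the assembly factors. Its 7 catalytic core genes had both marks in both lists, against 52.4% and 53.1% of all genes. The median share of their windows under H3K27ac was 95.4% in the control list and 42.0% in the mutant list, while for H3K4me3 it was 78.3% and 69.3%. Over all genes these medians were 6.80% and 8.76% for H3K27ac, and 38.3% and 42.5% for H3K4me3. Ndufs3, Ndufs7 and Ndufs8 had 8002 and 7800 bp, 3854 and 2746 bp, and 4599 and 1511 bp under H3K27ac in the control and mutant lists. This mark covered at least 500 bp less in mutant at 5 of the 7 and more at Ndufv1 alone, against 30.9% and 25.0% of all genes.

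Ndufs1 (chr1:63143592-63176822) encodes the largest iron-sulfur subunit. H3K27ac covered all 8002 bp of its windows in the control list and 4001 bp in the mutant list, and its widest peak measured 44075 and 8259 bp. H3K4me3 covered 6267 and 5549 bp there. Ndufs1 thus had less of both marks in the mutant list, with the larger difference in H3K27ac. Mutant H3K27ac covered all 4001 bp around the end at 63143592 and none around the end at 63176822. An end of Eef1b2 lies within 2 kb of Ndufs1, so the peaks may belong to either gene.

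Ndufv2 (chr17:66078795-66101559), an iron-sulfur subunit of the NADH-binding part, had H3K27ac over 8002 bp in the control list and 2979 bp in the mutant list. H3K4me3 there covered 4993 bp in the control list and 8002 bp in the mutant list, among the 4 largest gains of this mark. The widest H3K27ac peak that reached its windows measured 23301 bp in the control list and 2863 bp in the mutant list. Ndufv1 (chr19:4007499-4012755), which binds NADH, went the other way, with 2505 bp under H3K27ac in the control list and 6118 bp in the mutant list. Its H3K4me3 covered 3591 and 5611 bp.

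Among the 30 accessory genes of complex I, 23 had H3K27ac in the control list and 22 in the mutant list, with 5 lost of 23 and 4 gained of 7. The shares over all genes were 56.3% and 59.3% marked, 22.6% lost and 35.9% gained. The covered length was lower at 18 of the 30 and higher at 6, against 30.9% and 25.0% of all genes. Ndufa2 (chromosome 18, 36742332 to 36744587) had 6072 bp under H3K27ac in the control list and 742 bp in the mutant list, whereas H3K4me3 covered 4688 and 6256 bp. Ndufa11, a membrane-arm subunit, had 4722 bp of H3K27ac in the control list and none in the mutant list, with 4879 and 6995 bp of H3K4me3. Both genes thus had less H3K27ac and more H3K4me3 in the mutant list. Ndufs5 had 7022 and 2108 bp under H3K27ac, and 4155 and 2970 bp under H3K4me3. In the other direction, Ndufs4 (chr13:114287795-114388094), needed for a late step of assembly, had none in the control list and 3406 bp in the mutant list, and the control H3K27ac peak nearest to either gene end lay 11269 bp from it. Control H3K27ac peaks inside the gene covered 15.4% of its length.

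The Ndufb4 copies had little of either mark. Ndufb4b had 273 bp of H3K4me3 in the mutant list and nothing else, and Ndufb4c had 518 bp of H3K27ac in the control list and nothing else. Ndufb4 itself had 3151 and 3861 bp of H3K4me3, and 1859 bp of H3K27ac in the mutant list alone.

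The widest control H3K27ac peak at any member lay at Ndufb10 (chr17:24722060-24724423). It measured 58424 bp, against 5833 bp for the widest mutant peak, and an end of the ribosomal protein gene Rps2 lies within 2 kb of the gene. The widest mutant H3K4me3 peak lay at Ndufa7 (chr17:33824572-33838316), with 42147 bp, and covered the start. In control the peak over the start measured 11309 bp, and the widest, of 21891 bp, lay at the far end of the gene. The start of Ndufa7 lies 10 bp from the divergent start of Rps28. For both genes the peak cannot be assigned to the member or to its neighbour.

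Ndufa3 (chr7:3617347-3620165) was the only accessory member to lose H3K4me3. It had 3819 bp of its windows under this mark in control, in 3 peaks, and none in the mutant list, where the nearest peak was 3933 bp away. H3K27ac persisted there with 6819 bp in the control list and 3245 bp in the mutant list, so Ndufa3 went from both marks to H3K27ac alone. With windows of 5 kb, 2 members in place of 4 were without H3K4me3 in the mutant list alone. Of the 8 assembly factor genes, all had H3K4me3 in both lists, against 76.4% and 75.1% of all genes. H3K27ac marked 7 of them in the control list and 6 in the mutant list, against 56.3% and 59.3%. Ndufaf7, a methyltransferase needed for complex I assembly, had 3797 bp under H3K27ac in the control list and none in the mutant list, but 4271 and 6435 bp under H3K4me3.

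**Figure D4:**
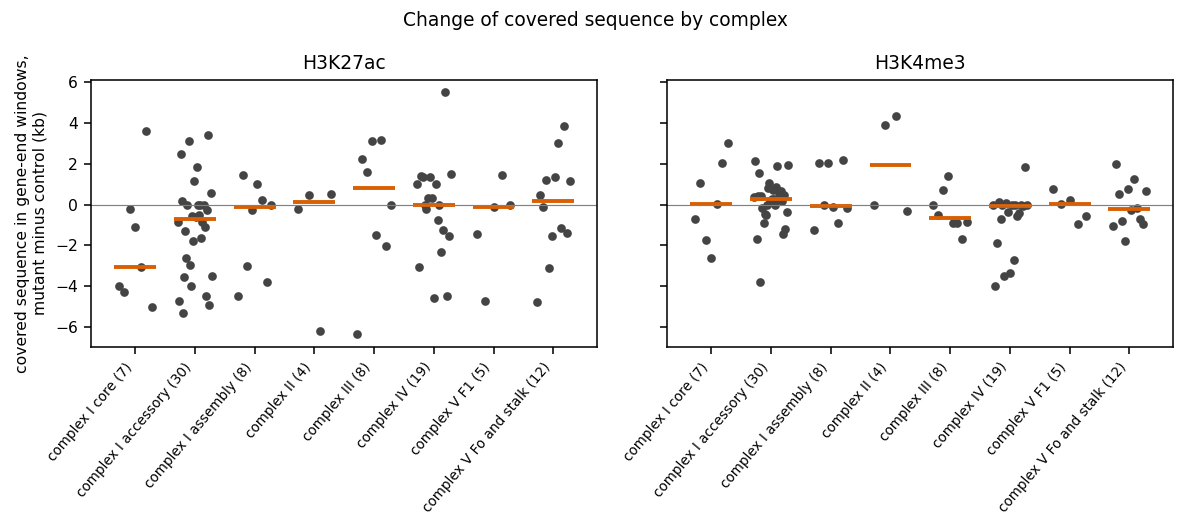
Covered sequence in the gene-end windows, mutant minus control (kb, y axis), with 1 point per member and the median of each complex (orange line). For H3K27ac the median of the complex I core genes was -3088 bp and that of complex III 800 bp, and points spread to both sides of 0 in every group.

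All 4 succinate dehydrogenase genes (complex II) had both marks in both lists, against 52.4% and 53.1% of all genes. Sdha, the flavoprotein, had short H3K27ac peaks, covering 947 bp in the control list and 752 bp in the mutant list, and H3K4me3 over 3055 and 3047 bp. Sdhb (chr4:140961271-140979198), the iron-sulfur subunit, had 4284 and 4738 bp under H3K27ac and 4112 and 8002 bp under H3K4me3. Sdhc (chr1:171129157-171150640), a membrane anchor, had the largest gain of H3K4me3, from 3072 to 7426 bp, beside one of the largest reductions of H3K27ac, from 6624 to 423 bp. Sdhd, the other anchor, had 3466 and 4001 bp under H3K27ac. At Sdhc the 2 marks thus differed in opposite directions.

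All 8 complex III genes had H3K4me3 in both lists, and 6 had H3K27ac in the control list and 7 in the mutant list. Over all genes the shares were 76.4% and 75.1% for H3K4me3 and 56.3% and 59.3% for H3K27ac. Uqcr10 (chr11:4701968-4704344), a small subunit, showed the largest reduction of H3K27ac of all members. A control peak of 21624 bp covered all 6377 bp of its windows, and the nearest mutant H3K27ac peak lay 6514 bp away. The start of Uqcr10 lies 312 bp from the divergent start of Zmat5, so these peaks cannot be assigned to either gene alone. H3K4me3 covered all 6377 bp in both lists, in a peak of 27064 bp in control, the widest of this mark at any member in the control list, and of 11630 bp in the mutant list. Uqcrfs1 (chr13:30540312-30545316), the Rieske iron-sulfur protein, was the reverse case. It had no control H3K27ac peak within 35390 bp of its ends and 3164 bp covered in the mutant list, by a peak at the far end of the gene and not over its start. Uqcrc1, a core protein, had 3325 and 6449 bp under H3K27ac and 2490 and 3877 bp under H3K4me3.

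**Figure D5:**
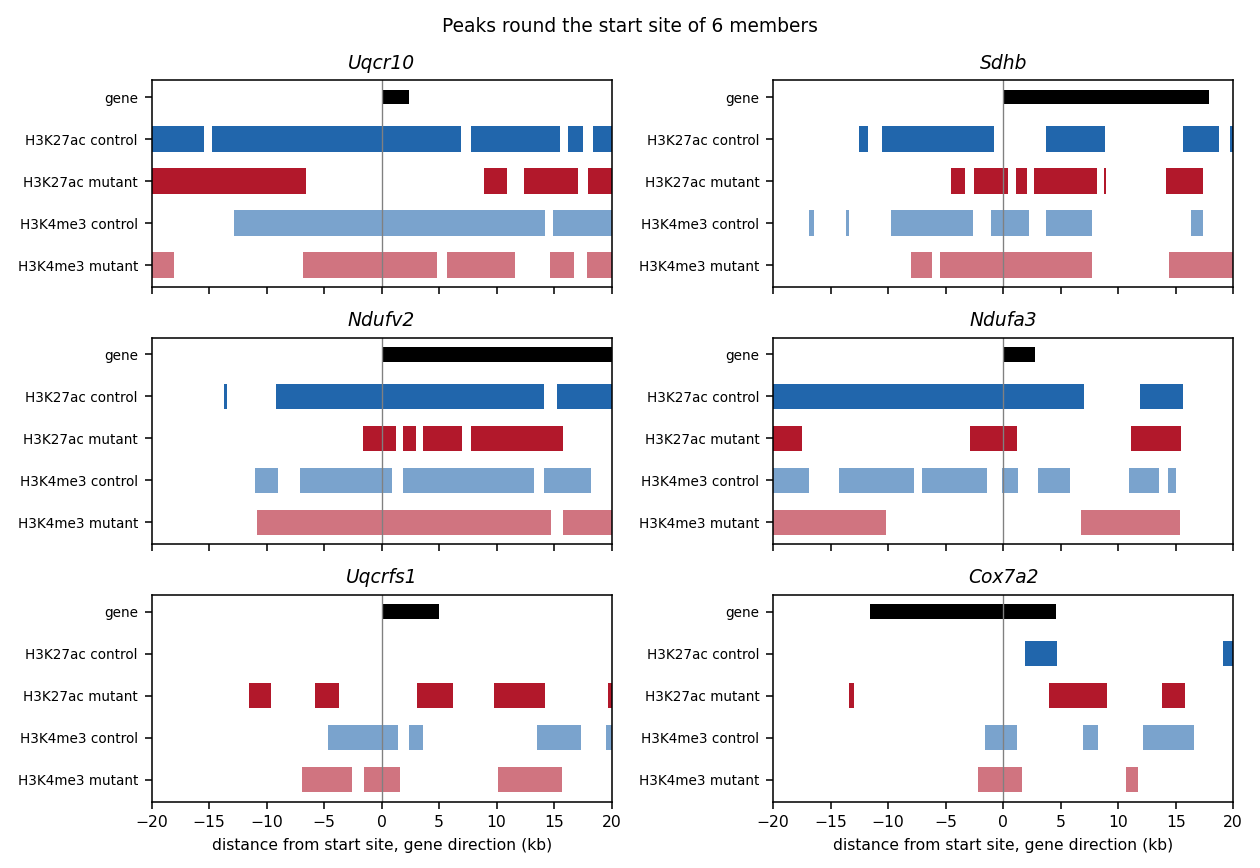
Peaks of the 4 lists (bars) within 20 kb of the start site of 6 members, with the distance from the start in gene direction on the x axis (kb) and the annotated gene in black. At Uqcr10 the control H3K27ac peak spans the gene and no mutant H3K27ac peak does, while H3K4me3 spans it in both lists. At Uqcrfs1 H3K27ac is present in the mutant list alone, and at Cox7a2 H3K4me3 lies over a start inside the annotated gene.

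Complex IV, cytochrome c oxidase, held 19 members with Ndufa4 and Ndufa4l2, which were counted here because Ndufa4 is now regarded as a subunit of this complex. It was the complex with most losses of H3K4me3. The mark was present at 15 members in the control list and 12 in the mutant list, and both marks together at 15 and 10. The 3 losses were 20% of the 15, against the 8.14% of all marked genes given above. H3K4me3 marked 78.9% and 63.2% of the 19 members, against 76.4% and 75.1% of all genes. Both marks went from 78.9% to 52.6% of the 19, against 52.4% and 53.1% of all genes. The remaining complexes had 1 H3K4me3 loss in all, at Ndufa3.

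The subunits of complex IV include isoforms restricted to certain adult tissues, such as Cox6a2, Cox7a1 and Cox8b in muscle, Cox6b2, Cox7b2 and Cox8c in testis and Cox4i2 in lung. With Ndufa4l2 they make 8 members, of which 5 had H3K4me3 in the control list and 3 in the mutant list. Their 6 ubiquitous counterparts (Cox4i1, Cox6a1, Cox6b1, Cox7a2, Cox8a and Ndufa4) had it at 5 in both. Both marks were found at 5 of the 8 restricted isoforms in the control list and 2 in the mutant list, and at 5 of 6 counterparts in both lists. Over all genes H3K4me3 was found at 76.4% and 75.1%, and both marks at 52.4% and 53.1%. These counts hold for windows of 2 kb. At Cox7a1 in the mutant list and at Cox8b in both lists, an H3K4me3 peak lay outside these windows but within 5 kb of a gene end. With so few genes the values are given one by one.

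Cox4i2 (chr2:152753916-152765039) had H3K4me3 over 4001 bp in the control list and none in the mutant list, and H3K27ac over 6658 and 3579 bp. Its counterpart Cox4i1 had H3K4me3 over 4001 bp in both lists and H3K27ac over 1222 and 2239 bp. Cox7a1 (chr7:30184171-30186030) had 3343 bp of H3K4me3 and 4572 bp of H3K27ac in the control list and neither mark in the mutant list. Its nearest mutant peaks lay 3881 bp (H3K4me3) and 3091 bp (H3K27ac) away. Both isoforms therefore stood without H3K4me3 within 2 kb of their ends in the mutant list, as did Cox7a2l. Cox7a2l serves in the assembly of supercomplexes and had 2713 bp in control. The nearest mutant H3K4me3 peaks of Cox4i2 and Cox7a2l lay 8011 and 7878 bp away.

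Cox8b (chr7:140898942-140900446) lacked both marks in its windows in control. In the mutant list H3K27ac covered all 5505 bp of them, the largest gain of any member, with no H3K4me3. The nearest control H3K27ac peak lay 2694 bp from a gene end. The nearest H3K4me3 peaks lay 2700 bp (control) and 2887 bp (mutant) from one, so these calls depend on the window of 2 kb. An end of the proteasome gene Psmd13 lies within 2 kb. Cox8c had 4506 bp of H3K27ac in the control list and none in the mutant list, with H3K4me3 over 4016 and 3927 bp. The ubiquitous Cox8a had H3K27ac over 6459 and 5210 bp and H3K4me3 over 6459 and 6028 bp. Cox7b2 had neither mark in either list, its nearest H3K4me3 peaks being 65652 and 31602 bp away.

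Cox6a2 had no H3K4me3 and only 473 and 258 bp of H3K27ac, whereas at Cox6a1 H3K27ac covered all 7307 bp in both lists and H3K4me3 7188 and 6469 bp. The widest mutant H3K27ac peak of all members, 22089 bp, lay at Cox6a1. Cox6b2 kept both marks, with H3K27ac over 1757 and 3091 bp and H3K4me3 over 3676 and 3767 bp. Cox6b1 (chr7:30616971-30626114) had 6143 and 6453 bp of H3K27ac, and 8002 and 4475 bp of H3K4me3, one of the 4 largest reductions of that mark. Ndufa4l2 had H3K4me3 over all 8002 bp in both lists, in peaks of 20493 and 16696 bp, and H3K27ac over 316 and 1810 bp. Ends of Shmt2 and Stac3 lie within 2 kb of Ndufa4l2, so these peaks cannot be assigned to it or to its neighbours. Ndufa4 had 5125 and 3595 bp of H3K27ac and 2019 and 3848 bp of H3K4me3. The windows of restricted isoforms thus ranged from unmarked (Cox7b2) to fully covered by H3K4me3 (Ndufa4l2).

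Cox7a2 was the only ubiquitous counterpart called without H3K4me3. Its annotated gene spans chr9:79755241-79771422, but the RefSeq start used here lies inside that span at position 79759853, and an H3K4me3 peak covered this start in both lists. The missing call follows from the rule on gene ends. H3K27ac covered 2085 and 3092 bp of the Cox7a2 windows. Cox5a, another nuclear subunit, had 3726 and 5145 bp of H3K27ac and 3119 and 1244 bp of H3K4me3. Its RefSeq start, at position 57521232, also lies inside the gene and outside these windows, and an H3K4me3 peak covered that start in both lists.

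All 17 ATP synthase genes had H3K4me3 in both lists, and 14 had H3K27ac in the control list and 15 in the mutant list, against the same shares of all genes as for complex III. Atp5b (chr10:128083307-128090388), the catalytic beta subunit, had 7171 bp of H3K27ac in the control list and 2453 bp in the mutant list. Its H3K4me3 covered 6344 and 6392 bp. Over the start the H3K4me3 peak measured 5409 bp in the control list and 32986 bp in the mutant list. At the far end of the gene it measured 20715 and 10988 bp. Atp5g1, a proton-carrying ring subunit, had 6902 and 2115 bp of H3K27ac, while Atp5mpl (chr12:111961374-111967009), a small membrane subunit, had none and 3872 bp. The other ring genes differed from Atp5g1, with 7519 and 8002 bp of H3K27ac at Atp5g2 and 5953 and 5834 bp at Atp5g3. So paralogs that encode the same ring protein did not share 1 outcome for H3K27ac.

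Of the 75 members with both marks in control, 61 had both in the mutant list (81.3%, against 76.8% of all such genes), 10 had H3K4me3 alone, 2 had H3K27ac alone and 2 had neither. These were 13.3%, 2.67% and 2.67% of the 75, against 18.1%, 3.22% and 1.86% of all such genes. Both marks were present at 75 members in the control list and 70 in the mutant list, against 52.4% and 53.1% of all genes. With lists of equal size the members' counts were 75 and 69, and the shares of all genes 52.4% and 49.04%, so the direction over all genes depended on the longer mutant H3K27ac list. Of the 12 members with H3K4me3 alone in control, 9 had both in the mutant list, against 44.9% of all such genes. Atp5e, Ndufb5 and Ndufb8 kept H3K4me3 alone. Counted in bases, 66.9% of the members' H3K4me3 sequence also lay under H3K27ac in the control list and 49.6% in the mutant list, against 52.9% and 39.9% over all genes.

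Many members lie close to other genes. Another coding gene had an end within 2 kb of 57 of the 93 members (61.3%), against 33.2% of all genes. For these the peak may belong to the neighbour. Among the 36 members without such a neighbour, H3K27ac marked 28 in the control list and 25 in the mutant list (77.8% and 69.4%), against 46.8% and 52.7% of all genes without a neighbour. It was lost at 8 of 28 (28.6%, against 25.5%) and gained at 5 of 8 (62.5%, against 33.6%). No alternative was run for these 36 members, and the order of losses and gains was not stable over all members. The H3K27ac covered length was lower at 14 and higher at 11, a more even split than over all members, against 24.8% and 24.2% of all genes without a neighbour. H3K4me3 marked 32 and 31 of the 36 members (88.9% and 86.1%), against 68.3% and 67.5%, with 2 lost of 32 (6.25%, against 10.2%) and 1 gained of 4, against 19.4%. Its covered length was lower at 16 and higher at 7, against 21.8% and 30.2%, in windows of 2 kb alone, so no direction is given here either.

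The genes of the pathway outside the rule were read the same way. Of 30 electron carriers and assembly factors, H3K4me3 marked 30 in the control list and 29 in the mutant list, the loss being at Cox19. H3K27ac marked 23 and 24 of them (76.7% and 80%, against 56.3% and 59.3% of all genes). It was lost at 4 of 23 (17.4%, against 22.6%) and gained at 5 of 7 (71.4%, against 35.9%). Of 14 regulators of these genes and of mitochondrial DNA, H3K4me3 marked 14 and 13 (76.4% and 75.1% of all genes), the loss being at Tfb1m. H3K27ac marked 11 of the 14 in both lists, with Tfb2m lost (1 of 11, against 22.6%) and Ppargc1a gained (1 of 3, against 35.9%). Yy1 had H3K27ac over 6593 and 1468 bp and H3K4me3 over 4001 and 8002 bp, in opposite directions as at Sdhc. Nrf1 had H3K27ac over 8002 and 7273 bp and H3K4me3 over 5877 and 4001 bp. Tfam, which packages mitochondrial DNA, had 1174 and 3231 bp of H3K27ac and 2094 and 2700 bp of H3K4me3.

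Gabpa, the DNA-binding subunit of GABP, has an end within 2 kb of the ATP synthase stalk gene Atp5j on chromosome 16, and single peaks reached both genes. In control embryos an H3K27ac peak of 11803 bp (84829023 to 84840825) and an H3K4me3 peak of 11512 bp (84827780 to 84839291) reached the windows of both. In mutant embryos an H3K4me3 peak of 17569 bp (84829358 to 84846926) did so and no H3K27ac peak did. H3K27ac covered 4850 bp at Atp5j and 4652 bp at Gabpa in control, and 1750 and 1652 bp in the mutant list. The values of the pair are therefore not independent.

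Ribosomal protein and proteasome genes, also highly expressed housekeeping families, gave a scale for these values. The ratio of H3K27ac covered sequence, mutant to control, was 0.795 at the 93 respiratory chain genes, 0.533 at 86 cytosolic ribosomal protein genes and 0.642 at 39 proteasome subunit genes. The median change of H3K27ac per gene was -215 bp, -2121 bp and -1322 bp in the same order, and 0 bp over all genes. The share of control-marked genes that lost H3K27ac was close in the 3 families, at 16.7%, 17.1% and 17.6%. H3K4me3 covered sequence had ratios of 0.994, 0.98 and 0.924. Differences between the families were not tested.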

How the data were processed

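The data were 4 peak lists deposited by the authors, 1 per mark and condition, each with 3 columns (chromosome, start, end) and no score. The labels tie both immunoprecipitation libraries of a group to the same list, and whether reads were pooled or calls combined is not given in the sources used here. The submitters' processing notes name the builds mm10 and GRCm38 and the tools CASAVA, Trimmomatic, Bowtie2, SAMtools, Picard, MACS2 and deepTools, without roles or settings. Depth is unknown, so precision could not be estimated. Groups came from sample titles.

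Gene positions, start sites and promoter sequences came from RefSeq tables of GRCm38.p6. Peaks were read as BED intervals and overlapped with windows of 2 kb around both gene ends (Python 3.11.15, pandas 2.3.3, NumPy 2.4.6). The overlap code was checked against a base-by-base count. The smallest change of covered length counted was 500 bp. The first listed start was used for the 5 members with more than 1. Ribosomal protein genes were those with symbols of Rpl, Rps or Rplp and a digit, without the Rps6k kinases.

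Reading peaks over the start itself, the limits of 1000 bp for divergent starts and of 10 CG dinucleotides, and the genes mapped were decided once the values were known. Named members were those with a change or lack of H3K4me3, the 4 largest changes of covered length per mark and direction, the widest peaks, fixed catalytic subunits and isoform pairs. Atp5g2, Atp5g3, Sdhd, Atp5j and a few others were named after their values were seen. The members and lists were chosen with earlier results of these data known. Alternatives are given in the closing section. A member that enters the counts is not reported by name here.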

Additional observations from a re-analysis of the deposited data

How the results depend on the processing

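No paired analysis was possible because both libraries of a group share a single list of peaks, and for the same reason no library could be left out in turn. The 14 counts of members were recomputed under 8 alternatives, and 101 of the 112 values stayed within 1.5 times the count reported. With only the window at the start, which 75 members have, H3K27ac marked 44 members in the mutant list and was gained at 5, its covered length was lower at 26, H3K4me3 was lower at 11, and both marks were found at 42 in the mutant list. Windows of 5 kb gave 4 members that gained H3K27ac, 2 that lost H3K4me3 and 46 with more H3K4me3. Windows of 1 kb gave 0 members that gained H3K4me3 and 10 with more of it, and dropping peaks under 500 bp also gave 0 that gained it. H3K27ac covered length was lower at more members than it was higher under all 8 alternatives. The lists differ in their smallest peak width, from 149 to 182 bp, and merging peaks less than 750 bp apart and dropping those under 200 bp in all of them gave 13 H3K27ac losses and 10 gains.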

Other observations

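Promoter composition was examined after the lists had been seen. The 300-base windows of the 75 members with a RefSeq promoter had a median of 20 CG dinucleotides (quartiles 15 and 25), against 14 (4 and 25) over 16457 genes, and a median GC content of 58.7% against 56.7%. With a limit of 10 CG dinucleotides, 71 of the 75 members were above or at it. Of these 71, 97.2% had a control H3K4me3 peak at a gene end, and the same share, 97.2%, was found for the 9631 genes of that class. H3K27ac in control embryos was found at 83.1% of the 71 members and at 71.1% of that class, and in mutant embryos at 81.7% and 71.6%.

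A divergent start of another coding gene lay within 1000 bp upstream of 21 of the 75 members (28.0%), against 7.79% of 16457 genes. Examples are Ndufs3 with Kbtbd4, at 19 bp, and Sdhd with Timm8b, which encodes a mitochondrial import protein, at 52 bp. H3K4me3 covered the start of all 21 in both lists, against 67.7% and 64.4% of the 16457 genes. H3K27ac covered the start of 18 of the 21 in control and 14 in mutant embryos, and of 31 and 24 of the other 54 members, against 36.4% and 28.8% of the 16457 genes. The marks at those of the 16457 genes that have a divergent start were not counted apart.

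Members whose promoter held NRF1, GABP or YY1 letters had H3K27ac over the start at 25 of 35 in control and 22 in mutant embryos. Those without had it at 24 of 40 in control and 16 in mutant embryos. Over all genes the shares were 60.0% and 41.8% with such letters and 30.8% and 25.8% without. The difference between the classes was not tested.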
